A study of Homo sapiens with 12 samples.

Results

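The genes of the proteasome were followed in K562 cells given nilotinib, hemin, both or neither. They were taken by name from the deposited count table, as every protein-coding gene whose symbol begins with PSMA, PSMB, PSMC, PSMD, PSME, PSMF or PSMG followed by a number. This gave 49 of the 58735 genes listed, and 37 rows of other types with such names, mostly processed pseudogenes, were left out. Of the 49, 47 had enough counts to be tested and 2, PSMA8 and PSMB11, did not. K562 is a human leukemia cell line driven by the fusion kinase BCR-ABL1, which nilotinib inhibits, and it starts to make hemoglobin when given hemin. The study asked by RNA-seq how nilotinib alters the hemin response. The 12 libraries fall into 4 groups of 3 biological replicates of this 1 line. Mock DMSO cells received the vehicle and no hemin, mock nilotinib cells 0.1 μM nilotinib and no hemin, hemin DMSO cells the vehicle and 50 μM hemin for 24 h, and hemin nilotinib cells 0.1 μM nilotinib and 50 μM hemin for 24 h. By the study's methods the drug or vehicle was given for 24 h before hemin and cells were collected at 0 h and at 24 h of hemin. The study's drawing of the experiment instead shows a common time of collection. A difference between hemin and mock libraries may therefore also hold a difference in time in culture. Time on the drug may likewise differ between mock nilotinib and hemin nilotinib. The nilotinib effects with and without hemin, and their interaction, may hold that difference too.

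The proteasome is the large protease that degrades proteins marked with ubiquitin. Its core is a barrel of alpha rings, which gate the channel, around beta rings, which hold the cutting sites, and in immune cells or after interferon the catalytic beta subunits PSMB6, PSMB7 and PSMB5 can be replaced by PSMB9, PSMB10 and PSMB8 to form the immunoproteasome. A regulatory particle caps the core, with a base of ATPases that unfold the substrate and a lid that removes the ubiquitin chain, while other caps, the activators PSME1 to PSME4, open the core without ubiquitin. In many cells the subunit genes are induced together when proteasome activity falls short, through the transcription factor NFE2L1, and proteasomes also take part in the clearance of proteins as red cells mature.

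The promoters of 5 members are shown first, since they carry the core letters of the antioxidant response element, TGACNNNGC, at which NFE2L1 and NFE2L2 bind, and since their genes later differ in their response to hemin. Promoter windows of RefSeq (GRCh38.p14), 250 bases before to 50 after a gene's start, were at hand for 43 of the 49 members and numbered 53. The table held no window for PSMA7, PSMB1, PSMB6, PSMB7, PSMD4 and PSMG3. The letters were searched on both strands, with no overlap with another motif considered, and 15 of the 53 windows (28.3%) held them, against 13.3% of all 35116 windows and 13.8% of the 22199 windows of protein-coding genes. A match of letters is a description of the sequence only. In the lines that follow the matching letters are in capitals, each sequence runs 5′ to 3′ along the strand of its gene, and none overlaps an exon of GENCODE 29. The PSMB9 stretch lies within the annotated gene, which has an exon further upstream, and the others lie upstream of their genes. PSMB3 and PSMD12 rose with hemin in the absence of nilotinib, PSMB9 fell, and PSMD9 and PSME1 did not pass the test.
PSMB3, chr17:38752597-38752685, plus strand: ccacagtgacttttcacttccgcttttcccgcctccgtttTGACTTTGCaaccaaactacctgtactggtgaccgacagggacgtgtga
PSMD12, chr17:67366694-67366782, minus strand: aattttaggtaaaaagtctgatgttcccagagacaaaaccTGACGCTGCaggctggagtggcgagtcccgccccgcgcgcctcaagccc
PSMB9, chr6:32854004-32854092, plus strand: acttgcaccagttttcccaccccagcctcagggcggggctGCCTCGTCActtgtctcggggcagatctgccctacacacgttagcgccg
PSMD9, chr12:121888601-121888689, plus strand: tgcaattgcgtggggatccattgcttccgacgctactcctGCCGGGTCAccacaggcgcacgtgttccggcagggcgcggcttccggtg
PSME1, chr14:24136068-24136156, plus strand: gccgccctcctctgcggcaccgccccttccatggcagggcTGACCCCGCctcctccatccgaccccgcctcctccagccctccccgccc
In PSMB9 and the PSMD9 site shown, the letters lie on the other strand and read GCNNNGTCA. No such letters stood in the windows of PSMD14, PSMC2 or PSMA6, which rose with hemin by more than PSMB3 did. They did stand in windows of PSMA4, PSMC4, PSMC5, PSMD1, PSMD3, PSME2 and PSME4, which rose with hemin in the absence of nilotinib. PSMD1 rose by 1.57, against 1.52 for PSMC2 and 1.48 for PSMA6. Other carriers were PSMD5, which fell, and PSMG1 and PSMG2, which did not pass. Any link between the letters and the response was not tested.

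Libraries held 33457078 to 50506990 counts. All 7 erythroid and K562 marker genes, among them GATA1, TAL1, KLF1 and TFRC, were above 1 RPKM (reads per kilobase of gene length and per 1000000 reads) in each library. Their summed level was 507 to 793 RPKM in mock DMSO, 1920 to 2732 in mock nilotinib, 418 to 483 in hemin DMSO and 1879 to 2474 in hemin nilotinib. The summed level of the 3 monocyte markers was 14.4 to 21.3, 1.81 to 2.46, 16.3 to 24.2 and 1.25 to 1.99 RPKM in the same order, and that of the 3 epithelial markers 70.2 to 78.7, 29.2 to 35.9, 88.9 to 132 and 24.3 to 27.6. The 3 T cell markers summed to at most 14.3 RPKM, the 3 B cell markers to at most 5.83 and the 3 fibroblast markers to at most 3.26, and no defining marker was at 0 in all 12 libraries. These markers moved with the groups, and their part in the results on the proteasome genes was not tested. In such bulk libraries fewer cells of a type and less RNA per cell cannot be told apart.

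Most proteasome genes rose with hemin when nilotinib was absent. Together the members took 0.464 to 0.487% of all counts in the mock DMSO libraries, 0.436 to 0.450% in mock nilotinib, 0.649 to 0.757% in hemin DMSO and 0.544 to 0.590% in hemin nilotinib, so the 4 groups do not overlap. Between hemin DMSO and mock DMSO 32 of the 47 members tested were higher and 5 lower at an adjusted p under 0.05 (edgeR's quasi-likelihood test, Benjamini-Hochberg over all 20821 genes tested), where 25.7% of all genes tested were called higher and 27.8% lower. The median log2 fold change of the members was 0.77, beside -0.05 over all genes tested. The 31 subunits of the core, base and lid were all positive, 29 of them past the threshold, with a median of 0.83, and the other 16 members had a median of -0.10 with 3 higher and 5 lower. The calls of PSMB8, PSMC5, PSMD4 and PSME2 each depended on a library that is named with the gene, and the other 33 held with each library left out. With no composition factors, under which the median of all genes moved by -0.24, the split was 29 higher and 9 lower.

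With hemin present, most proteasome genes fell with nilotinib. Between hemin nilotinib and hemin DMSO 29 members were lower and 7 higher, where 31.8% of all genes tested were called lower and 32.4% higher, with a median log2 fold change of -0.44 for the members and 0.02 for all genes. Among the 31 core, base and lid subunits 25 fell and 1, PSMA2, rose, with a median of -0.59. With no composition factors, under which the median of all genes moved by 0.18, 20 members were lower and 8 higher and their median was -0.26. This comparison shares the hemin DMSO libraries with the preceding one, so their directions are not independent of each other. Of the 36 calls, 29 held with each library left out. PSMA1 and PSMC5 were each lost in 10 of the 12 omissions and kept without hemin DMSO replicate 2 or hemin nilotinib replicate 3 for PSMA1, and without hemin DMSO replicate 3 or hemin nilotinib replicate 1 for PSMC5. PSMB2 was lost without mock DMSO replicate 1 (-0.40), hemin DMSO replicate 1 (-0.31), hemin nilotinib replicate 2 (-0.40) or hemin nilotinib replicate 3 (-0.29). PSMG3 was lost without mock DMSO replicate 1 (-0.35) or 3 (-0.36), hemin DMSO replicate 3 (-0.30), hemin nilotinib replicate 2 (-0.27) or hemin nilotinib replicate 3 (-0.33). PSMB1 was lost without hemin nilotinib replicate 2 (-0.35) or 3 (-0.30), PSMD11 without hemin DMSO replicate 1 (-0.28) and PSMF1 without hemin DMSO replicate 3 (0.39).

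**Figure D1:**
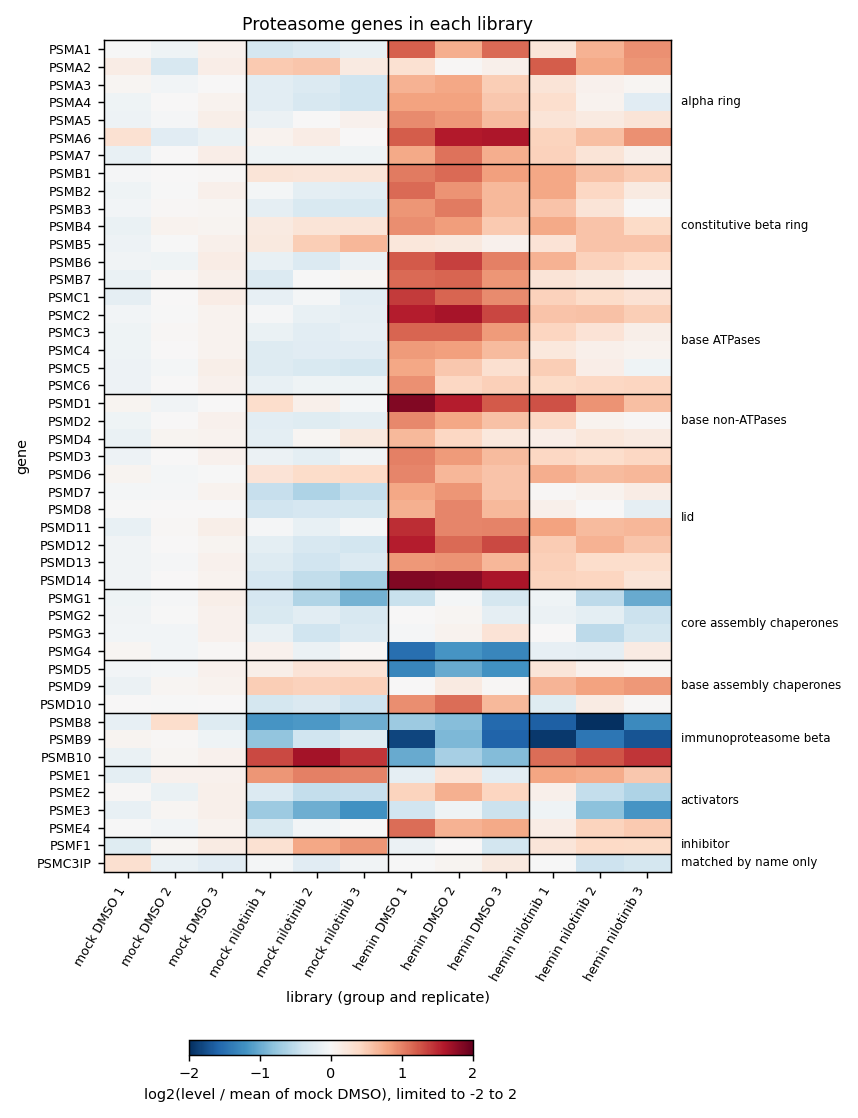
Heatmap of the 47 proteasome genes tested (rows, ordered by the role of their product) in the 12 libraries (columns). Color gives the log2 ratio of a gene's level to its mean in mock DMSO, from -2 (blue) to 2 (red). Most core, base and lid rows are redder in hemin DMSO than in hemin nilotinib, with PSMA2 and PSMB5 the other way, whereas PSMB10 is red in both nilotinib groups and PSMB8 and PSMB9 are blue outside mock DMSO.

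The heatmap of levels relative to mock DMSO shows these shifts gene by gene, and the roles are taken in turn below. Levels are RPKM computed from the deposited counts and gene lengths with TMM scaling. The length of a gene takes in all its annotated exons, such as 9123 bases for PSMD6 and 3105 for PSMD8. It need not be that of the mRNA made, so levels of different genes compare only roughly. In mock DMSO the mean levels of the 31 core, base and lid genes ran from 0.455 RPKM (PSMA6) to 94.2 (PSMA7), with a median of 23.2, and the median was 22.0 in mock nilotinib, 51.6 in hemin DMSO and 33.6 in hemin nilotinib.

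**Figure D2:**
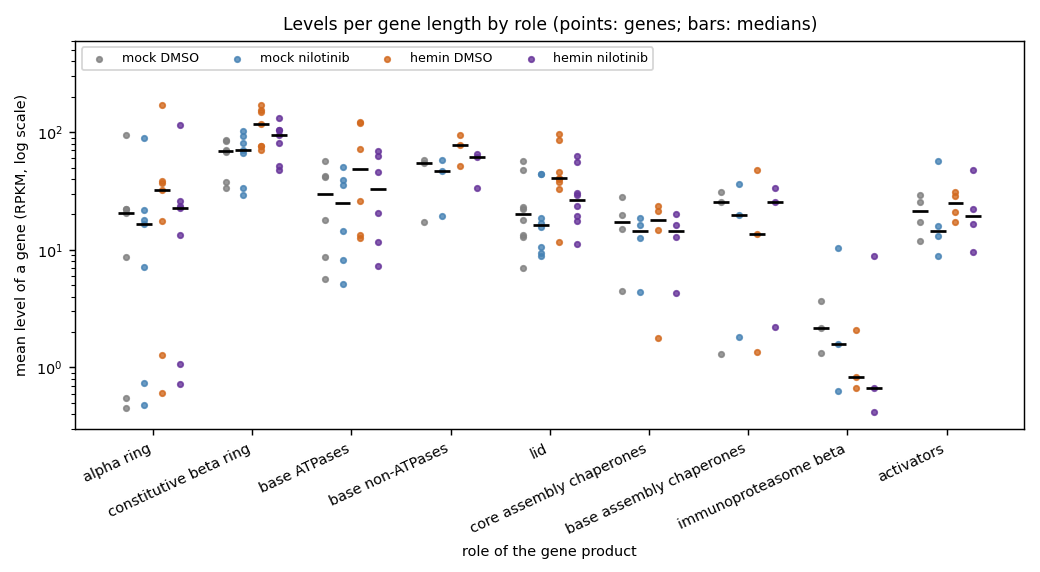
Mean level of each gene (points, RPKM on a log scale) by the role of its product and by group, with a bar at the median of the role. The constitutive beta ring has the highest median of the roles in each group, and the immunoproteasome genes lie below 12 RPKM throughout.

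In the plot of levels by role, the 7 constitutive beta genes stood highest, with median levels of 69.3 RPKM in mock DMSO, 70.9 in mock nilotinib, 118 in hemin DMSO and 94.1 in hemin nilotinib. Subunits that sit in the particle in equal number differed in RPKM, and how far the gene lengths used account for this was not tested. The alpha genes had medians of 20.5, 16.7, 32.4 and 22.5 RPKM and the lid genes ranged in mock DMSO from 6.97 RPKM (PSMD6) to 56.4 (PSMD8).

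The alpha ring showed the hemin rise in 6 of its 7 genes and the fall with nilotinib under hemin in the same number. PSMA6, at chr14:35278633-35317493 (GRCh38, plus strand), had 0.561, 0.389 and 0.417 RPKM in mock DMSO, 0.479, 0.502 and 0.456 in mock nilotinib, 1.05, 1.37 and 1.40 in hemin DMSO and 0.623, 0.692 and 0.862 in hemin nilotinib. Every hemin DMSO library lay above all the others, and the mock groups overlapped. PSMA6 rose with hemin by a log2 of 1.48 (SE 0.22, edgeR adjusted p = 3.85e-05) and with nilotinib under hemin it fell by 0.81 (SE 0.22, edgeR adjusted p = 0.00382). PSMA1, the alpha gene with the smallest change of nilotinib under hemin, had 8.56, 8.14 and 9.14 RPKM in mock DMSO, 6.73, 7.09 and 7.79 in mock nilotinib, 19.8, 14.3 and 18.8 in hemin DMSO and 10.2, 14.0 and 16.2 in hemin nilotinib. Here the hemin groups overlapped, and the log2 fold change of -0.39 (SE 0.16, edgeR adjusted p = 0.048) ranged from -0.21 to -0.43 in the 10 omissions that lost it. PSMA1 rose with hemin by 1.03. PSMA3, PSMA4, PSMA5 and PSMA7 rose with hemin by 0.66 to 0.86 and changed by -0.53 to -0.64 with nilotinib under hemin. PSMA2 went the other way, at 0.678, 0.556 and 0.589 RPKM in hemin DMSO and 1.27, 0.921 and 1.003 in hemin nilotinib, a rise of 0.81 (SE 0.23, edgeR adjusted p = 0.0051). Both PSMA2 and PSMA6 rest on few reads for subunits of this kind, 93 to 236 and 103 to 358 counts a library. Of their exon length 14.6% and 14.1% is shared on the same strand with another annotated gene (AC010132.3 with 0 to 3 counts and AL121594.1 with 0 to 31), and for PSMA2 a further 20.0% lies opposite another gene. How the counting treated such reads and whether it used strand is not given in the sources used here, so the level of both genes, and of PSMA1 with 24.7% of its exon length shared, is uncertain.

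Among the constitutive beta genes PSMB7, which carries the trypsin-like site, changed most with nilotinib under hemin. It had 64.5, 71.6 and 75.9 RPKM in mock DMSO, 58.5, 70.3 and 72.9 in mock nilotinib, 156, 158 and 130.4 in hemin DMSO and 84.8, 81.3 and 74.8 in hemin nilotinib. Hemin DMSO stood clear above the other 9 libraries. The hemin rise was 1.07 (SE 0.13, edgeR adjusted p = 5.85e-06), and PSMB7 fell by 0.88 with nilotinib under hemin (SE 0.13, edgeR adjusted p = 2.16e-05). PSMB6, the caspase-like subunit, rose by 1.21 and fell by 0.68 in the same comparisons. PSMB4, a structural subunit, had 63.1, 72.7 and 72.3 RPKM in mock DMSO, 78.4, 83.3 and 82.8 in mock nilotinib, 132, 124 and 99.2 in hemin DMSO and 117, 103 and 90.2 in hemin nilotinib. Both hemin groups lay above both mock groups and overlapped each other, and its rise of 0.77 under hemin passed while the difference of -0.19 with nilotinib under hemin did not (SE 0.14, edgeR adjusted p = 0.232). PSMB1, PSMB2 and PSMB3 rose by 0.87 to 1.003 under hemin and had log2 fold changes of -0.38 to -0.56 with nilotinib under hemin, with the calls of PSMB1 and PSMB2 lost in the omissions named above (-0.29 to -0.40). PSMB5, the chymotrypsin-like subunit and the target of bortezomib, was the exception. It had 62.8, 67.0 and 72.6 RPKM in mock DMSO, 77.0, 95.3 and 106 in mock nilotinib, 79.1, 77.1 and 72.0 in hemin DMSO and 81.8, 100.3 and 100.1 in hemin nilotinib, so the nilotinib groups were above their vehicle groups with or without hemin. Its hemin difference of 0.17 did not pass (SE 0.14, edgeR adjusted p = 0.301) and was -0.067 with no composition factors. The nilotinib difference passed without hemin, at 0.46 (SE 0.14, edgeR adjusted p = 0.0123), though not without mock DMSO replicate 1 (0.37) or mock nilotinib replicate 2 (0.41) or 3 (0.32), and it did not pass under hemin, at 0.31 (SE 0.14, edgeR adjusted p = 0.0594), except without mock DMSO replicate 1 (0.34), mock nilotinib replicate 1 (0.32) or hemin nilotinib replicate 1 (0.41).

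All 6 ATPase genes of the base rose with hemin, by a median of 0.92, and 5 of them fell with nilotinib under hemin. PSMC2 had 40.6, 42.1 and 44.5 RPKM in mock DMSO, 41.6, 38.4 and 37.4 in mock nilotinib, 125, 132 and 107 in hemin DMSO and 63.1, 64.0 and 59.6 in hemin nilotinib. The hemin groups were separate from each other and from the mock groups. The rise with hemin was 1.52 (SE 0.12, edgeR adjusted p = 8.43e-08), and with nilotinib under hemin PSMC2 fell by 0.97 (SE 0.12, edgeR adjusted p = 3.81e-06). PSMC6, at the other end, had 8.19, 8.75 and 9.30 RPKM in mock DMSO, 7.89, 8.25 and 8.24 in mock nilotinib, 16.4, 11.6 and 12.2 in hemin DMSO and 11.4, 11.7 and 11.7 in hemin nilotinib. Hemin DMSO replicate 1 was the high library and the rest of the hemin libraries lay within 1 RPKM of each other, and the nilotinib difference under hemin was -0.21 (SE 0.13, edgeR adjusted p = 0.171). PSMC1, PSMC3 and PSMC4 rose by 0.77 to 1.18 with hemin and changed by -0.64 to -0.81 with nilotinib under hemin. For PSMC1, 75.8% of the exon length lies opposite NRDE2 and 15.8% of its 150-base words also occur in the pseudogene PSMC1P1, so its level is uncertain. PSMC5 rose by 0.56, a call lost without mock DMSO replicate 1 (0.44), and its fall of -0.36 with nilotinib under hemin ranged from -0.22 to -0.37 in the omissions that lost it.

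Of the base subunits that are no ATPases, PSMD1, the largest scaffold, rose by 1.57 with hemin (SE 0.18, edgeR adjusted p = 3.14e-06). Its levels were 18.1, 16.6 and 17.5 RPKM in mock DMSO, 22.2, 18.6 and 16.9 in mock nilotinib, 62.6, 51.6 and 40.6 in hemin DMSO and 41.9, 32.5 and 26.5 in hemin nilotinib. The lowest hemin DMSO library lay just under the highest hemin nilotinib library, and the difference of -0.62 with nilotinib under hemin passed the test (SE 0.18, edgeR adjusted p = 0.00606). The scaffold PSMD2 followed with 0.79 and -0.61. PSMD4, a ubiquitin receptor, had 52.5, 60.1 and 60.5 RPKM in mock DMSO, 50.2, 59.5 and 65.8 in mock nilotinib, 90.5, 77.0 and 67.1 in hemin DMSO and 63.3, 67.4 and 65.7 in hemin nilotinib. It had the smallest hemin rise of the base subunit genes, and only the hemin DMSO libraries stood above their mock group. The hemin rise of 0.44 was lost without mock DMSO replicate 1 (0.31) or hemin DMSO replicate 1 (0.33), and the nilotinib difference under hemin, -0.26 (SE 0.14, edgeR adjusted p = 0.116), passed only without hemin DMSO replicate 3 (-0.36).

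The lid held the gene that moved most among the core, base and lid. PSMD14, the metalloprotease that cuts the ubiquitin chain from the substrate, lies at chr2:161308038-161411717 on the plus strand. It had 12.7, 13.4 and 14.0 RPKM in mock DMSO, 10.6, 9.45 and 8.23 in mock nilotinib, 48.0, 47.1 and 41.3 in hemin DMSO and 18.3, 18.1 and 16.0 in hemin nilotinib, and no group overlapped another. PSMD14 rose with hemin by 1.77, a fold of 3.40 (SE 0.13, edgeR adjusted p = 3.37e-08). With nilotinib it fell by 1.38 under hemin (SE 0.13, edgeR adjusted p = 1.45e-07) and by 0.50 without hemin (SE 0.13, edgeR adjusted p = 0.00428). PSMD6, the lid gene with the smallest nilotinib difference under hemin, had 7.21, 6.75 and 6.96 RPKM in mock DMSO, 8.44, 9.01 and 9.20 in mock nilotinib, 13.7, 11.0 and 10.3 in hemin DMSO and 11.6, 10.8 and 11.0 in hemin nilotinib. The hemin groups overlapped, both lay above the mock groups, and the nilotinib difference under hemin was -0.07 (SE 0.12, edgeR adjusted p = 0.639) beside a hemin rise of 0.74. That difference changed sign without hemin DMSO replicate 1 (0.06) and with no composition factors (0.11). The other lid genes, PSMD3, PSMD7, PSMD8, PSMD11, PSMD12 and PSMD13, rose with hemin by 0.75 to 1.35 and changed by -0.42 to -0.80 with nilotinib under hemin. PSMD11 lost the latter call without hemin DMSO replicate 1 (-0.28). PSMD12 and PSMD11 rose most of these, by 1.35 and 1.17, and PSMD7 has 30.7% of its exon length opposite AC009120.2.

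The assembly chaperones differed among themselves. PSMD5, PSMD9 and PSMD10 help to build the base, and each behaved differently. PSMD5 had 30.0, 30.3 and 32.8 RPKM in mock DMSO, 33.8, 37.4 and 37.7 in mock nilotinib, 12.5, 15.4 and 13.4 in hemin DMSO and 36.7, 32.8 and 31.6 in hemin nilotinib. Only hemin DMSO was low, so PSMD5 fell with hemin by 1.17 (SE 0.12, edgeR adjusted p = 1.16e-06) and rose with nilotinib under hemin by 1.29 (SE 0.12, edgeR adjusted p = 1.86e-07), against the direction of the subunits. PSMD10, also known as gankyrin, moved with the subunits, by 0.91 with hemin and -0.91 with nilotinib under hemin. PSMD9 had 1.19, 1.33 and 1.36 RPKM in mock DMSO, 1.83, 1.79 and 1.79 in mock nilotinib, 1.31, 1.46 and 1.32 in hemin DMSO and 2.06, 2.25 and 2.35 in hemin nilotinib. It was higher in each nilotinib library than in every vehicle library, by 0.71 with hemin (SE 0.14, edgeR adjusted p = 0.000363) and by 0.48 without (SE 0.14, edgeR adjusted p = 0.0111), the latter lost without mock DMSO replicate 1 (0.38) or mock nilotinib replicate 2 (0.45). Of the exon length of PSMD9, 19.9% is shared with AC069503.2 or WDR66.

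PSMG1 to PSMG4 help to assemble the core. PSMG4 had 4.54, 4.25 and 4.51 RPKM in mock DMSO, 4.69, 4.09 and 4.49 in mock nilotinib, 1.56, 1.96 and 1.80 in hemin DMSO and 3.94, 3.92 and 4.95 in hemin nilotinib. Its pattern was that of PSMD5, with hemin DMSO alone low, a fall of -1.32 with hemin (SE 0.14, edgeR adjusted p = 1.06e-06) and a rise of 1.27 with nilotinib under hemin (SE 0.14, edgeR adjusted p = 7.44e-07). Of the exon length of PSMG4, 15.0% lies opposite SLC22A23 and TUBB2B. PSMG2 had 14.4, 15.0 and 16.0 RPKM in mock DMSO, 12.3, 13.0 and 12.2 in mock nilotinib, 15.2, 15.5 and 13.4 in hemin DMSO and 14.0, 13.3 and 11.3 in hemin nilotinib, and none of its comparisons passed. For PSMG2 the nilotinib difference was -0.19 under hemin (SE 0.12, edgeR adjusted p = 0.175), and that without hemin, -0.28, passed only without hemin nilotinib replicate 3 (-0.31). PSMG1 and PSMG3 did not pass with hemin, and PSMG3 fell by 0.38 with nilotinib under hemin, the call that 5 omissions ended (-0.27 to -0.36).

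The immunoproteasome genes fell with hemin in the absence of nilotinib, whereas PSMB6 and PSMB7 rose and PSMB5 did not pass, and PSMB10 parted from PSMB8 and PSMB9 under nilotinib. PSMB8 (chr6:32840717-32844703, minus strand) and PSMB9 (chr6:32844136-32859585, plus strand) overlap at their ends on opposite strands, and PSMB10 lies at chr16:67934502-67937087 on the minus strand. PSMB10 had 3.38, 3.78 and 3.91 RPKM in mock DMSO, 9.18, 11.7 and 9.97 in mock nilotinib, 1.84, 2.34 and 2.03 in hemin DMSO and 8.02, 8.80 and 9.95 in hemin nilotinib. The nilotinib groups overlapped each other and stood above both vehicle groups, of which hemin DMSO was the lower. With nilotinib PSMB10 rose by 2.11 under hemin, a fold of 4.32 (SE 0.17, edgeR adjusted p = 4.25e-08), and by 1.48 without (SE 0.17, edgeR adjusted p = 3.19e-06), and with hemin it fell by 0.84 in the absence of nilotinib (SE 0.17, edgeR adjusted p = 0.000687). Of the exon length of PSMB10, 34.8% is shared on the same strand with AC040162.1, which had 13 to 87 counts a library, so its level is uncertain. PSMB8 had 1.20, 1.70 and 1.12 RPKM in mock DMSO, 0.592, 0.603 and 0.683 in mock nilotinib, 0.808, 0.745 and 0.457 in hemin DMSO and 0.432, 0.275 and 0.554 in hemin nilotinib. Mock DMSO alone was high, and the other 3 groups lay below it. PSMB8 fell with nilotinib in the absence of hemin by 1.09 (SE 0.30, edgeR adjusted p = 0.00754), a call lost without mock DMSO replicate 2 (-0.89), and with hemin in the absence of nilotinib it changed by -1.002 (SE 0.30, edgeR adjusted p = 0.00999), lost without mock DMSO replicate 2 (-0.81) or hemin DMSO replicate 3 (-0.77). Under hemin its nilotinib difference of -0.66 did not pass (SE 0.31, edgeR adjusted p = 0.0736), though it did without hemin DMSO replicate 3 (-0.89) or hemin nilotinib replicate 3 (-0.90). PSMB9 had 2.25, 2.21 and 2.05 RPKM in mock DMSO, 1.26, 1.65 and 1.82 in mock nilotinib, 0.608, 1.16 and 0.718 in hemin DMSO and 0.571, 0.795 and 0.654 in hemin nilotinib. The hemin groups overlapped and were below both mock groups, and PSMB9 fell with hemin by 1.39 in the absence of nilotinib (SE 0.26, edgeR adjusted p = 0.00027) and by 1.23 in its presence (SE 0.26, edgeR adjusted p = 0.0142), the latter lost without mock nilotinib replicate 2 (-1.21) or 3 (-1.14). Its nilotinib differences, -0.30 with hemin and -0.46 without, did not pass (SE 0.26 and 0.25, edgeR adjusted p = 0.332 and 0.147), and the former was 0.023 without hemin DMSO replicate 2. PSMB8 and PSMB9 rest on 30 to 214 and 61 to 384 counts a library.

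**Figure D3:**
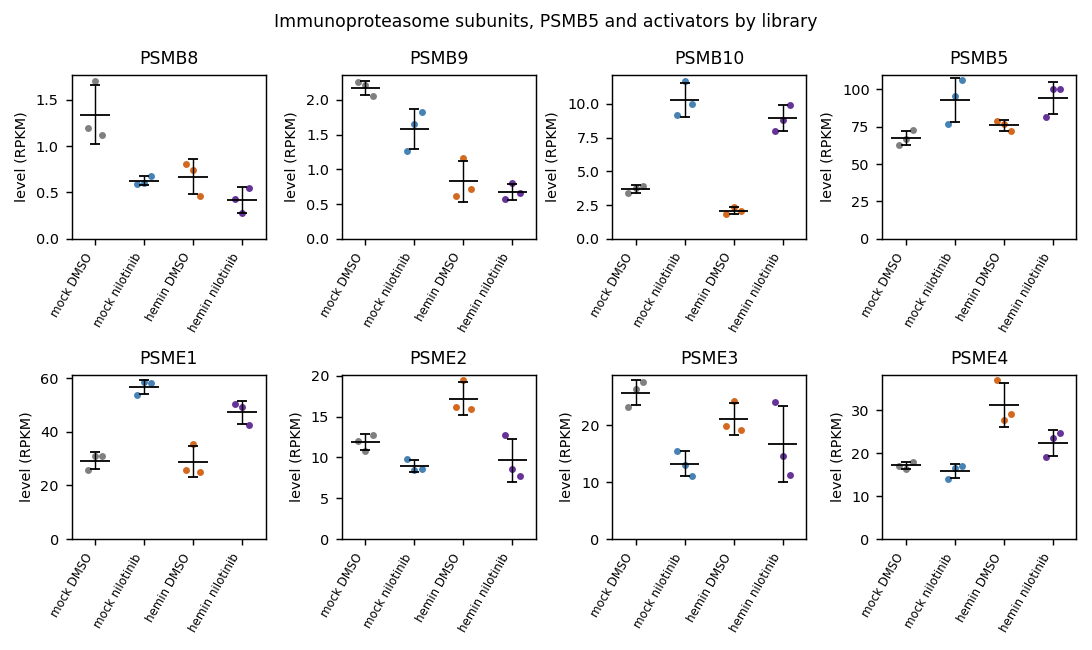
Levels (RPKM, linear axes from 0) of the 3 immunoproteasome genes, of PSMB5 and of the 4 activator genes in the 3 libraries of each group, with the mean (long bar) and SD (capped bar). PSMB10 and PSME1 are higher in both nilotinib groups, PSMB9 is lower in both hemin groups, and PSME2 is highest in hemin DMSO.

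The activators also split, as the plot of immunoproteasome and activator genes by library shows. PSME1 and PSME2, on chromosome 14 with 4395 bases between them, encode the alternating subunits of the interferon-induced cap. PSME1 had 25.6, 31.0 and 31.1 RPKM in mock DMSO, 53.9, 58.6 and 58.1 in mock nilotinib, 25.8, 35.4 and 25.2 in hemin DMSO and 50.5, 49.1 and 42.4 in hemin nilotinib. The nilotinib libraries were all above the vehicle libraries, by 0.96 without hemin (SE 0.14, edgeR adjusted p = 5.68e-05) and by 0.72 with it (SE 0.14, edgeR adjusted p = 0.000408). PSME2 had 11.98, 10.8 and 12.7 RPKM in mock DMSO, 9.75, 8.49 and 8.58 in mock nilotinib, 16.1, 19.5 and 15.9 in hemin DMSO and 12.7, 8.53 and 7.70 in hemin nilotinib. Its nilotinib libraries lay below their vehicle group with or without hemin, where those of its partner lay above. PSME2 fell with nilotinib by 0.83 under hemin (SE 0.17, edgeR adjusted p = 0.000402), and the difference of -0.41 without hemin did not pass (SE 0.17, edgeR adjusted p = 0.061) except without hemin nilotinib replicate 1 (-0.41) or 3 (-0.43). Its rise of 0.54 with hemin was lost without mock DMSO replicate 1 (0.48) or 2 (0.46) or hemin DMSO replicate 2 (0.44).

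PSME3, which caps proteasomes in the nucleus, had 23.3, 26.3 and 27.6 RPKM in mock DMSO, 15.5, 13.0 and 11.1 in mock nilotinib, 19.8, 24.3 and 19.1 in hemin DMSO and 24.2, 14.6 and 11.3 in hemin nilotinib. Mock nilotinib was low in each library, whereas hemin nilotinib replicate 1 was as high as the hemin DMSO libraries. PSME3 fell with nilotinib by 0.96 without hemin (SE 0.21, edgeR adjusted p = 0.00173), and under hemin the difference was -0.34 (SE 0.21, edgeR adjusted p = 0.177), or -0.69 and past the threshold without hemin nilotinib replicate 1. PSME4, the single-chain cap of the core, had 17.0, 16.4 and 18.0 RPKM in mock DMSO, 13.9, 16.5 and 17.1 in mock nilotinib, 37.1, 27.7 and 29.1 in hemin DMSO and 19.0, 23.5 and 24.6 in hemin nilotinib. It followed the subunits, with a rise of 0.87 under hemin (SE 0.15, edgeR adjusted p = 0.000118) and a fall with nilotinib of -0.48 (SE 0.15, edgeR adjusted p = 0.00808). PSMF1, an inhibitor of the core, was higher with nilotinib, by 0.68 without hemin (SE 0.16, edgeR adjusted p = 0.0024) and by 0.50 with it (SE 0.16, edgeR adjusted p = 0.0107), the latter lost without hemin DMSO replicate 3 (0.39). PSMC3IP, which meets the rule by its name but encodes a recombination factor, passed in no comparison and had group means of 6.10 to 7.65 RPKM. The tissue-restricted PSMA8 and PSMB11, subunits of testis and thymus, had 0 to 3 and 0 to 10 counts a library.

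Fewer proteasome genes passed the test with hemin when nilotinib was present. Between hemin nilotinib and mock nilotinib 16 of the 47 members were higher and 1, PSMB9, was lower, where 3.52% of all genes tested were called higher and 2.28% lower, with a median log2 fold change of 0.36 for the members and 0.03 over all genes. All 16 are subunits of the core, base or lid, and all 31 of these had a positive value, with a median of 0.51. The 2 hemin comparisons share no library. The 16 genes higher with nilotinib present were 50% of the 32 higher without it and 100% of their own list. Since 29 of the 31 core, base and lid genes were higher without nilotinib, a large overlap was likely beforehand. The like share over all genes tested is not given here. The 16 were PSMA1, PSMA3, PSMB2, PSMB3, PSMB6, PSMC1, PSMC2, PSMC3, PSMC6, PSMD1, PSMD3, PSMD7, PSMD11, PSMD12, PSMD13 and PSMD14. PSMD14 rose by 0.89 with nilotinib present (SE 0.13, edgeR adjusted p = 0.0015), PSMD12 by 0.88 (SE 0.13, edgeR adjusted p = 0.00151), PSMA1 by 0.90 (SE 0.17, edgeR adjusted p = 0.00702) and PSMD13 by 0.70 (SE 0.12, edgeR adjusted p = 0.00345), and these 4 calls held with each library left out. The other 13 were each lost in at least 1 omission, and the number called was 4 without mock nilotinib replicate 2, 6 without mock nilotinib replicate 3, 8 without hemin nilotinib replicate 2, 10 without mock DMSO replicate 2 and 11 without mock nilotinib replicate 1.

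**Figure D4:**
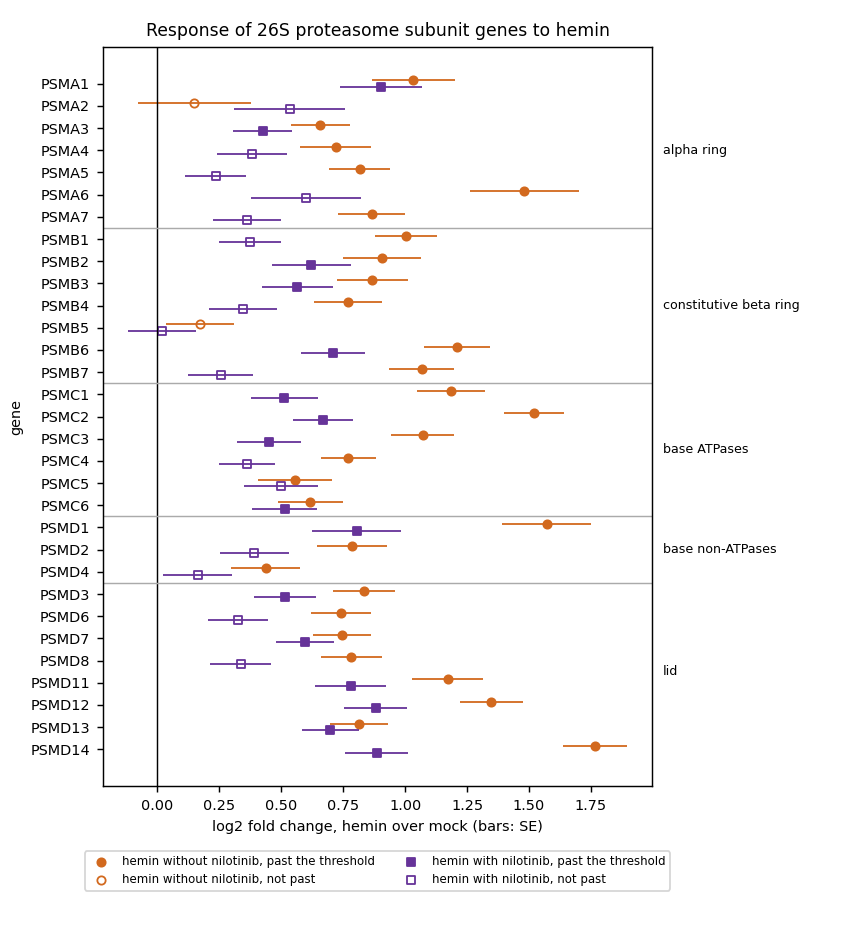
Log2 fold change of hemin over mock (points, bars: SE) for the 31 genes of the core, base and lid, without nilotinib (orange circles) and with it (purple squares), filled where the change passed the threshold. The orange circle lies to the right of the purple square for each gene other than PSMA2.

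In the plot of the hemin response, the value without nilotinib was the larger for 30 of the 31 core, base and lid genes, with PSMA2 as the exception. The test of that difference is the interaction of nilotinib and hemin, which uses all 4 groups and equals the nilotinib effect under hemin minus that without. It called 11 members lower and 2 higher, where 13.0% of all genes tested were called lower and 17.1% higher, with a median of -0.30 for the members and 0.06 over all genes. The 11 were PSMA5, PSMA6, PSMB1, PSMB6, PSMB7, PSMC1, PSMC2, PSMC3, PSMD1, PSMD14 and PSMD10, and each of them had risen with hemin alone. The interaction holds that hemin change with its sign reversed, on the same libraries, so this overlap is partly built in. The 2 higher were the chaperones PSMD5 and PSMG4. The calls of PSMB7, PSMC2, PSMD14, PSMD5 and PSMG4 held with each library left out. The number called was 7 without mock DMSO replicate 1 or mock nilotinib replicate 2, and 8 without mock DMSO replicate 2, mock nilotinib replicate 3 or hemin nilotinib replicate 2. With no composition factors, under which the median of all genes moved by 0.21, the calls were 4 higher and 4 lower and the members' median was -0.10 beside 0.27 over all genes.

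Without hemin, fewer proteasome genes passed the test with nilotinib than under hemin. Between mock nilotinib and mock DMSO 6 members were higher and 8 lower, where 20.7% of all genes tested were called higher and 21.8% lower, with medians of -0.14 for the members and 0.00 over all genes. The higher genes were PSMB5, PSMB10, PSMD6, PSMD9, PSME1 and PSMF1, and the lower were PSMB8, PSMD7, PSMD8, PSMD10, PSMD13, PSMD14, PSME3 and PSMG1. Of the 7 alpha and the 6 ATPase genes 0 passed by edgeR and by DESeq2 (2 and 0 at an unadjusted p under 0.05 in edgeR), whereas 4 of the 8 lid genes fell. The lid genes were PSMD7 by -0.51 (SE 0.12, edgeR adjusted p = 0.00213), PSMD14 by -0.50, PSMD8 by -0.36 and PSMD13 by -0.30, and PSMD6 was higher by 0.35. This comparison and that of nilotinib under hemin share no library. They shared 4 higher members, PSMB10, PSMD9, PSME1 and PSMF1, which are 66.7% of those without hemin and 57.1% of those with it. They also shared 5 lower ones, PSMD7, PSMD8, PSMD10, PSMD13 and PSMD14, which are 62.5% and 17.2%. The like shares over all genes tested are not given here. Of the 14 calls 6 held with each library left out, those of PSMB10, PSMD7, PSMD14, PSME1, PSME3 and PSMF1. PSMD10 lost its call without any mock library or hemin DMSO replicate 1 (-0.34 to -0.41), PSMD8 without mock DMSO replicate 2 or 3 or any mock nilotinib library (-0.35 to -0.40), and PSMD13 without these or hemin DMSO replicate 1 (-0.28 to -0.34). PSMD6 lost it without any mock DMSO library, mock nilotinib replicate 2 or 3 or hemin nilotinib replicate 2 (0.30 to 0.33), and PSMG1 without mock DMSO replicate 3 (-0.57) or mock nilotinib replicate 2 (-0.64) or 3 (-0.49). PSMB5, PSMB8 and PSMD9 lost it in the omissions given above. The number called was 7 without mock nilotinib replicate 2, 8 without mock nilotinib replicate 3 and 9 without mock DMSO replicate 2 or 3. When the 6 libraries of the comparison were fitted alone, 28 members were called, 9 higher and 19 lower. The split also moved with the scaling, to 9 higher and 5 lower with upper-quartile factors and to 6 higher and 13 lower with none.

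Genes that act with the proteasome but have other names were followed as a list. Of 12 such genes 8 were higher and 2 lower with hemin in the absence of nilotinib, and 2 were higher and 8 lower with nilotinib under hemin. Of all genes tested 25.7% were called higher and 27.8% lower in the former comparison, and 32.4% and 31.8% in the latter. ADRM1, a ubiquitin receptor of the base, had mean levels of 27.8 ± 1.3 RPKM in mock DMSO, 24.0 ± 1.5 in mock nilotinib, 93.9 ± 9.9 in hemin DMSO and 36.9 ± 2.7 in hemin nilotinib (SD, n = 3), a rise of 1.76 and a fall with nilotinib of -1.35. POMP, the maturation factor of the core, rose by 1.13 with hemin and changed by -1.14 with nilotinib under hemin. ZFAND2A, an arsenite-inducible partner of the base, had 2.78, 2.96 and 3.48 RPKM in mock DMSO, 3.16, 3.35 and 2.89 in mock nilotinib, 506 to 753 in hemin DMSO and 8.53, 32.8 and 66.7 in hemin nilotinib, a rise with hemin of 7.62 (SE 0.56, edgeR adjusted p = 3.6e-08). The hemin nilotinib libraries differed widely among themselves in this gene. USP14, a deubiquitinase that binds the base, went the other way, with -0.73 under hemin and 0.87 with nilotinib under hemin.

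Of the ubiquitin genes, UBB and RPS27A were higher with hemin in the absence of nilotinib and lower with nilotinib under hemin. The rise of RPS27A, 0.42, was lost without any mock DMSO library, mock nilotinib replicate 2 or 3, hemin DMSO replicate 2 or hemin nilotinib replicate 2 (0.27 to 0.41). UBB, a polyubiquitin gene, rose by 2.45 and with nilotinib under hemin it fell by 1.58. Among the 6 ubiquitin shuttles 3 rose, SQSTM1 by 3.03, UBQLN1 by 1.15 and RAD23B by 0.39, the last of these lost without mock DMSO replicate 1 (0.28), and UBQLN4 fell by 0.52, beside the 25.7% of all genes tested that were higher and the 27.8% that were lower in this comparison.

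The 5 genes that control proteasome transcription did not move in 1 direction. With hemin in the absence of nilotinib NFE2L2 rose by 0.66 and VCP, the segregase that extracts NFE2L1 from the membrane, by 0.71. NFE2L1 itself fell by 0.67, as did NGLY1, which removes its sugars, by 0.79 and DDI2, the protease that cuts it, by 1.02. DDI2 had mean levels of 9.38 ± 0.93 RPKM in mock DMSO, 27.8 ± 2.0 in mock nilotinib, 4.62 ± 1.1 in hemin DMSO and 22.1 ± 5.5 in hemin nilotinib (SD, n = 3). It stood above its vehicle group with nilotinib, by 1.57 without hemin and by 2.26 with it. NFE2L2 went the other way, with nilotinib differences of -0.82 without hemin and -1.04 with it. NFE2L1 was lower with nilotinib without hemin (-0.75), and its difference of -0.19 under hemin did not pass. NGLY1 passed under hemin alone (0.44), a call lost in 6 omissions, and VCP passed in neither. These are mRNA levels, and neither the cut form of NFE2L1 nor proteasome activity was measured here.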

How the data were processed

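RNA-seq of K562 cells gave 12 libraries, 3 for each of 4 groups taken from the sample labels. The authors deposited raw counts per gene from 150-base paired-end reads, and the main tests used these counts. A deposited table of FPKM, in which counts per kilobase were scaled by size factors of the median-of-ratios kind, served only in alternatives, as log2 values of the deposited FPKM plus a pseudocount of 1 or 0.1. The authors' mean FPKM per group was not used. Gene length was taken from the deposited table. The submitters' processing notes name the genome build GRCh38.p12, DESeq and DESeq2, and the aligner, the counter and its strand setting are not given in the sources used here.

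The filter filterByExpr of edgeR 4.0.16 (R 4.3.3), with a minimum count of 10 and a minimum total of 15, left 20821 of the 40578 genes that had a count. After TMM scaling, all 12 libraries entered a quasi-likelihood fit with a mean for each group. Tests were two-sided with Benjamini-Hochberg adjustment over all genes tested, and a gene was called at an adjusted p under 0.05. The 5 contrasts were nilotinib with and without hemin, hemin with and without nilotinib, and their interaction. The SE is the absolute log2 fold change divided by the square root of F. The labels call the replicates biological, with no note of separate days or cultures. For 3 against 3 libraries an exact permutation test cannot go below a two-sided p of 0.1, so none was run. A count of 3 corresponds to 0.0594 to 0.0897 CPM over the libraries, and this covers counting error only.

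Members and gene lists were chosen with earlier results of these data known. All members were named with their role, and values in each library were given for the immunoproteasome and activator genes and, in each role of 3 or more tested members, for those with the largest and the smallest change of nilotinib under hemin, and further for PSMA2 and PSMB5, chosen after their values were seen, as was the list gene ZFAND2A. Values of some list and marker genes are not reported here but enter the counts and sums. Positions, exon overlaps and shared words of 150 bases came from GENCODE 29, promoters from RefSeq (GRCh38.p14).

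Alternatives were DESeq2 1.42.0, RLE, upper-quartile or no composition factors, 2 other filters, limma 3.58.1 on the FPKM, a fit of the 6 compared libraries only, a minimum log2 fold change of 0.5, a block for the replicate number, and the omission of each library. Deviations from the group means were correlated between libraries of the same replicate number, which the labels give. The correlation exceeded 0.1 in all 3 pairs for 1 comparison, hemin with nilotinib (0.199 to 0.263). It was 0.087 to 0.099 for nilotinib without hemin, 0.085 to 0.104 for hemin without nilotinib and -0.007 to 0.235 for nilotinib with hemin. By this cut the numbers were taken to pair the libraries of hemin with nilotinib and no others. The procedures were tested on simulated data. Figures were drawn in Python 3.11.15 with matplotlib 3.10.9.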

Additional observations from a re-analysis of the deposited data

Results flagged for a closer look

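For 13 of the 47 proteasome genes tested (27.7%) the nilotinib effect differed between the presence and the absence of hemin. The test was the interaction term of the fit (edgeR's quasi-likelihood test, Benjamini-Hochberg over all genes tested). It called 17.1% of all genes tested higher and 13.0% lower. The difference, as a log2 of the effect with hemin minus that without, was positive for the chaperones PSMG4 (1.27) and PSMD5 (1.06) and negative for 11 genes. Among these it was -0.88 for PSMD14, -0.85 for PSMC2 and -0.81 for PSMB7, and these 5 held with each library left out. PSMA6 had -0.88 and lost the call without any mock nilotinib library, mock DMSO replicate 2 or 3, hemin DMSO replicate 2 or 3 or hemin nilotinib replicate 1 or 2 (-0.77 to -0.89). PSMD1 had -0.77 and lost it without any mock DMSO library, mock nilotinib replicate 1 or 2, hemin DMSO replicate 1 or hemin nilotinib replicate 2 or 3 (-0.58 to -0.76). PSMC1 had -0.67 and lost it without mock DMSO replicate 1 (-0.51) or mock nilotinib replicate 2 (-0.59), and PSMB1 had -0.63 and lost it without mock DMSO replicate 1 (-0.53). PSMC3 had -0.62 and lost it without mock DMSO replicate 1, mock nilotinib replicate 2 or 3 or hemin nilotinib replicate 2 or 3 (-0.50 to -0.61). PSMA5 had -0.58 and lost it without mock DMSO replicate 1 or 2, mock nilotinib replicate 2 or 3 or hemin nilotinib replicate 2 (-0.45 to -0.56). PSMD10 had -0.56 and kept it only without hemin DMSO replicate 3 or hemin nilotinib replicate 2, with -0.44 to -0.57 in the other 10 omissions. PSMB6 had -0.50 and kept it only without hemin DMSO replicate 3 or hemin nilotinib replicate 1, with -0.39 to -0.53 in the others. PSMA6 rests on 103 to 358 counts a library and has 14.1% of its exon length in common with another gene.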

How the results depend on the processing

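Of the 117 calls of a member in a comparison none changed sign under any alternative, 77 held with each library left out and 73 under every alternative. With each library left out, the number of members called ranged from 31 to 39 for nilotinib with hemin (36 with all libraries), from 7 to 18 for nilotinib without hemin (14), from 34 to 37 for hemin without nilotinib (37), from 4 to 19 for hemin with nilotinib (17) and from 7 to 17 for the interaction (13). For nilotinib without hemin 28 members were called when the 6 libraries of the comparison were fitted alone and 8 when a log2 change of 0.5 was also required. For hemin with nilotinib 7 were called in the 6 libraries alone and 11 by limma on the FPKM with either pseudocount. For the interaction 20 were called with upper-quartile factors, 8 with no composition factors and 7 with all genes that had a count, and the 6-library fit could not be made for it. The causes were not tested.

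The scaling moved the median of all genes by 0.18 for nilotinib with hemin, -0.24 for hemin without nilotinib and 0.21 for the interaction with no composition factors, and by 0.11 for nilotinib without hemin, 0.12 for hemin without nilotinib and -0.12 for the interaction with upper-quartile factors. The share of higher genes among all calls moved from 48.0% to 33.9% for hemin without nilotinib, from 60.7% to 49.2% for hemin with nilotinib and from 56.7% to 73.3% for the interaction with no composition factors, and from 56.7% to 46.3% for the interaction with upper-quartile factors. Among values not past the threshold, the difference of PSMD6 with nilotinib under hemin changed sign with no composition factors (0.11) and ranged from -0.16 to 0.06 over the omissions, being positive without hemin DMSO replicate 1. That of PSMB9 ranged from -0.48 to 0.023, positive without hemin DMSO replicate 2, and that of PSMB5 with hemin in the absence of nilotinib was -0.067 with no composition factors.

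With the replicate number as a block, 37, 16, 37, 18 and 13 members were called in the order above. The block was fitted over all 12 libraries and so entered each comparison, although the numbers were taken to pair only mock nilotinib and hemin nilotinib. For hemin with nilotinib the block added PSMC5, at 0.49 (adjusted p = 0.0461, against 0.061 without it), and in its 6 libraries alone, an alternative chosen after seeing the data, the block gave 20 calls. Depth limits PSMA2, PSMA6, PSMB8 and PSMB9 most, and PSMA8 and PSMB11 could not be tested.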

Other observations

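Genes that work with the immunoproteasome in antigen presentation were followed beside PSMB8, PSMB9 and PSMB10. Of the 7 listed, 4 were higher and 1 lower with nilotinib without hemin, 5 were higher and 2 lower with nilotinib under hemin, and 1 was higher and 5 lower with hemin in the absence of nilotinib. Of all genes tested 20.7% were called higher and 21.8% lower in the first of these comparisons, 32.4% and 31.8% in the second and 25.7% and 27.8% in the third. Among the list genes called in the third, NLRC5 (2.18) lost its call without mock DMSO replicate 1 (1.71) or hemin DMSO replicate 2 (1.46). This call rests on levels near 0, at 0.0029 to 0.0109 RPKM in mock DMSO and 0.0049 to 0.0618 in hemin DMSO. TAP2 (-0.58) lost its call without hemin DMSO replicate 1 (-0.49) or 3 (-0.46), and IRF1 (-0.52) without mock DMSO replicate 2 (-0.43) or hemin DMSO replicate 2 (-0.34). With hemin in the presence of nilotinib 0 of the 7 passed by edgeR, 2 had an unadjusted p under 0.05 and DESeq2 called 1. TAPBP, the tapasin of the peptide-loading complex, had mean levels of 33.6 ± 2.1 RPKM in mock DMSO, 65.8 ± 8.8 in mock nilotinib, 17.7 ± 1.4 in hemin DMSO and 57.0 ± 5.2 in hemin nilotinib (SD, n = 3). It rose with nilotinib by 0.97 without hemin and by 1.69 with it. IRF1, a transcription factor of the interferon response, rose by 1.06 and 1.17 in the same comparisons. NLRC5, the activator of class I genes, had 0.0029, 0.0077 and 0.0109 RPKM in mock DMSO and 0.655, 1.03 and 0.871 in mock nilotinib. The peptide transporter genes differed from these, as TAP2 fell with nilotinib by 1.52 without hemin and by 0.66 with it, while TAP1 changed by -0.04 without hemin, which did not pass, and by 0.63 with it, a call lost without hemin DMSO replicate 1 (0.48) or 3 (0.53). B2M, the light chain of class I molecules, fell by 0.63 with nilotinib under hemin.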
